A study of Mus musculus with 4 samples.

Results

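The genes of MHC class II presentation were followed here in small intestine and colon of the mouse. The list held 7 genes, taken by symbol with earlier results of these data known: H2-Aa, H2-Ab1, H2-Eb1, Cd74, H2-DMa, H2-DMb1 and Ciita. All 7 were found among the 20978 genes of the exon table and all 7 had reads in each of the 4 libraries. Reads were summed over the exon blocks of a gene, that is, over the merged RefSeq exons of the mm9 assembly to which the SOLiD reads had been matched.

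All 4 libraries came from total tissue, frozen in liquid nitrogen, of C57BL/6 mice aged 9 to 10 weeks and kept free of specific pathogens. According to the methods of the study the pieces were jejunum and distal colon. The cDNA fragmented protocol was used for 1 library of small intestine and 1 of colon, starting from polyadenylated RNA that was copied and amplified as full-length cDNA. Another small intestine library and another colon library were made with a whole transcriptome kit from RNA depleted of ribosomal RNA, and are called rRNA-depleted below. With 1 library per tissue and protocol there was no replicate within a protocol, so no test between tissues was made in either pair alone. All intervals are 95% intervals and cover counting error only. Reads sharing a start can be copies of 1 molecule, so the intervals are too narrow where copies are common.

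The cDNA fragmented libraries held 22484041 uniquely placed reads of small intestine and 24798934 of colon, the rRNA-depleted ones 2035386 and 3478387. Markers of the tissues were on the labelled side: all 6 small intestine genes, such as the lactase gene Lct, and all 5 colon genes, such as the carbonic anhydrase gene Car1, passed the 3-fold rule described below in both protocols. Other things differed along with tissue. In the cDNA fragmented pair Xist, transcribed from the inactive X chromosome, had 3.97 RPKM in small intestine against 0.0636 in colon, while the Y-linked Eif2s3y had 0 and 1191 reads, so tissue and sex cannot be told apart there. The study describes its tissues as coming from the same individuals, and the sex-linked genes of this pair differ from that description. In the rRNA-depleted pair Eif2s3y had 40 and 143 reads. The summed level of 8 pancreatic acinar genes was 0.827 RPKM in small intestine against 537 in colon in the cDNA fragmented pair, and 2900.1 against 8.86 in the rRNA-depleted pair. Their part in the values of the class II genes was not tested.

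MHC class II molecules carry peptides from ingested and endosomal proteins to the cell surface, where CD4+ T cells read them. An α and a β chain pair in the endoplasmic reticulum with the invariant chain, which fills the groove and leads the complex to endosomes. There the invariant chain is cut by proteases to a short remnant, and the DM heterodimer exchanges this remnant for peptide. Dendritic cells, macrophages and B cells express the pathway constitutively, and epithelial cells of the gut can express it too, in particular under interferon gamma. Transcription depends on the coactivator CIITA, which does not bind DNA itself but is held at the promoters by RFX, CREB and NF-Y factors. H2-Aa and H2-Ab1 encode the chains of I-A, H2-Eb1 the β chain of I-E, Cd74 the invariant chain, H2-DMa and H2-DMb1 the DM chains, and Ciita the coactivator. Mice of the C57BL/6 strain make no I-E at the surface, because the promoter of H2-Ea, which encodes its α chain, is deleted.

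The NF-Y site, the Y box, can be read in the promoters of several members. Promoters of 4 of the 7 members were found in the RefSeq table of the GRCm38.p6 assembly, those of H2-Aa, H2-Eb1, H2-DMa and H2-DMb1. The letters TGATTGG, or their reverse complement, were searched in the 250 bases before each transcript start. They stood in the promoters of 3 of these 4 members. H2-DMa had 2 promoters, both without these letters. Counted by promoter, 3 of 5 of the members had them, beside 2375 of the 32851 promoters of the table, or 7.23%. The match began 50 bases before the start in H2-Aa, 61 in H2-Eb1 and 63 in H2-DMb1. The last 120 bases before the start are shown for these members, and for H2-Oa, H2-Ob and H2-Eb2 as class II genes that did not pass the 3-fold rule, with TGATTGG in capitals and the gene's strand written 5′ to 3′.
H2-Aa (chr17:34287824-34287943, minus strand): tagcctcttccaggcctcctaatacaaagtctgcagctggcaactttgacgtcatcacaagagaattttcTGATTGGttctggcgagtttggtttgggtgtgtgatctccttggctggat
H2-Eb1 (chr17:34305747-34305866, plus strand): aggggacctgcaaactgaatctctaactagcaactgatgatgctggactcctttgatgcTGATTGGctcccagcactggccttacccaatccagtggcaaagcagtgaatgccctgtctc
H2-DMb1 (chr17:34153071-34153190, plus strand): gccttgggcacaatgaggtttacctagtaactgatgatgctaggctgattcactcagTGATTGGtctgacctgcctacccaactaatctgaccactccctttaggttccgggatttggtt
H2-Oa (chr17:34092259-34092378, plus strand): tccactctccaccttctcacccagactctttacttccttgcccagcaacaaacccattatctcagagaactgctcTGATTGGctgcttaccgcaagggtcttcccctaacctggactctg
H2-Ob (chr17:34238785-34238904, plus strand): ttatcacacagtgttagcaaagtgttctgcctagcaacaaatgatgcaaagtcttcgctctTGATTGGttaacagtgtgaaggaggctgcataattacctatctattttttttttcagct
H2-Eb2 (chr17:34325555-34325674, plus strand): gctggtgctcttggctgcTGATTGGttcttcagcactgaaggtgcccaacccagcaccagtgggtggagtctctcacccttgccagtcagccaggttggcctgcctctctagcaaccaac
These letters therefore stood in promoters of genes from either set, and a match does not say that a factor was bound.

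Levels are given as RPKM, the reads per 1000 bases of exon block and per 1000000 uniquely placed reads. All 7 members were higher in small intestine than in colon in both protocols. Together they took 112246 reads in small intestine, or 4992 per 1000000, against 13145 reads in colon, or 530.1 per 1000000, by cDNA fragmentation. In the rRNA-depleted libraries they took 8114 reads, or 3986 per 1000000, against 2691, or 774 per 1000000. In bulk tissue, fewer expressing cells and less RNA per cell cannot be told apart.

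A gene was called where the RPKM of one tissue was at least 3 times the RPKM of the other plus a penalty of 1, among genes that in either library passed 0.01 RPKM and had 2 or more start points. By this rule 6 of 7 members were higher in small intestine in the cDNA fragmented pair, and no member was higher in colon. Over all 16574 genes tested the share called higher in small intestine was 2.72%, and 3.2% were called higher in colon. In the rRNA-depleted pair 7 of 7 members were called higher in small intestine and none in colon, against 3.69% and 6.59% of 15152 genes. The median log2 ratio (colon over small intestine, as in all log2 ratios here), taken after 0.1 RPKM was added, was -2.84 over the members and 0.36 over all genes tested by cDNA fragmentation. By rRNA depletion it was -2.28 over the members and 0.42 over all genes tested. Scaling by median-of-ratios size factors moved log2 ratios, before a pseudocount, by -0.40 in the cDNA fragmented pair and by -0.34 in the rRNA-depleted pair, and with them the split of calls over all genes. Of the calls, 45.9% were on the side of small intestine in the first scaling and 62.9% with size factors by cDNA fragmentation, and 35.9% and 54.1% by rRNA depletion. The members' ratios then ran from 5.35 to 16.9 and from 4.95 to 6.92, in place of 4.04 to 12.8 and 3.91 to 5.46. A fit over all 4 libraries with protocol as a block (limma on log2(RPKM + 0.1), 1 residual degree of freedom, added after the data were seen) gave a log2 ratio of -3.04 (SE 0.43) for Cd74, -2.66 (SE 0.38) for H2-Ab1 and -2.02 (SE 0.56) for Ciita. All 7 members passed a Benjamini-Hochberg adjusted p of 0.05 toward small intestine, with adjusted p-values of limma from 0.000108 to 0.0234, against 4.19% of the 14914 genes fitted, and 9% passed toward colon. These p-values set the tissue difference against its spread between protocols, most of which is borrowed from other genes, not from further mice.

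**Figure D1:**
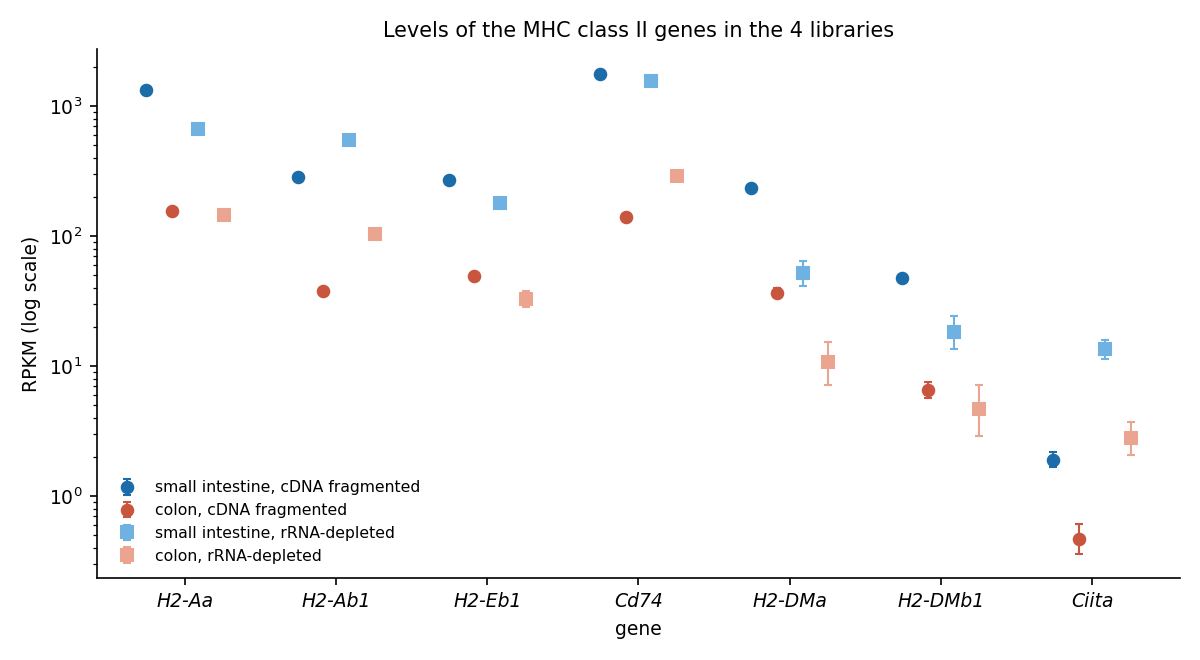
RPKM on a log axis for the 7 members in the 4 libraries, with circles for cDNA fragmented, squares for rRNA-depleted, blue for small intestine and red for colon. Bars are 95% Poisson intervals, and for each gene and protocol the small intestine point lies above the colon point, from Cd74 at 1781 RPKM down to Ciita at 0.470 RPKM.

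The chains of I-A had the levels that follow. H2-Aa (chr17:34419696-34424716 in mm9, minus strand, 5 exon blocks) had 1334 RPKM in small intestine against 156 in colon by cDNA fragmentation, and 665 and 145 by rRNA depletion. These stand for 32067, 4140, 1448 and 540 reads. Colon values of the 2 protocols were close, and the small intestine values were apart. The small intestine/colon ratio was 8.54 (8.27 to 8.83) by cDNA fragmentation and 4.58 (4.15 to 5.07) by rRNA depletion. H2-Ab1 (chr17:34400185-34406355, plus strand, 6 exon blocks) had 287 and 37.8 RPKM by cDNA fragmentation and 546 and 104 by rRNA depletion, from 7575, 1098, 1303 and 423 reads. Here both rRNA-depleted values were higher than the cDNA fragmented values of the same tissue. The ratio was 7.61 (7.14 to 8.11) and 5.26 (4.71 to 5.89) in the same order. Its last exon block overlaps an exon of a GENCODE M1 transcript of H2-Aa, and without this block its log2 ratio was -3.09 in place of -2.92 by cDNA fragmentation and -2.05 in place of -2.40 by rRNA depletion.

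H2-Eb1 (chr17:34442812-34453619, plus strand, 6 exon blocks), the β chain of I-E, had 273 and 48.9 RPKM by cDNA fragmentation and 180 and 32.9 by rRNA depletion, from 10247, 2025, 610 and 191 reads. Its ratio was 5.58 (5.32 to 5.86) and 5.46 (4.63 to 6.46), so counted in reads the protocols did not differ beyond counting error. Its partner gene H2-Ea had 2 reads in the cDNA fragmented small intestine library and 0 reads in each of the other 3, below the limit of 3 reads that a count of 0 allows, and no ratio was formed.

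Cd74 (chr18:60963503-60972306, plus strand, 9 exon blocks) was the member with the highest RPKM in 3 of the 4 libraries. It had 1781 RPKM in small intestine against 140 in colon by cDNA fragmentation, from 56672 and 4901 reads. By rRNA depletion it had 1556 and 292 RPKM, from 4481 and 1437 reads. The small intestine/colon ratio was 12.8 (12.4 to 13.1) by cDNA fragmentation, and 188 of the 16574 genes tested, or 1.13%, had a ratio at least as high. By rRNA depletion it was 5.33 (5.02 to 5.66), which 562 genes, or 3.71%, reached or passed. The cDNA fragmented ratio was 2.39 times the rRNA-depleted ratio, which by reads is more than for any of the other 6 members. By start points, the distinct positions and strands at which reads begin, the ratio of Cd74 was 1.39 by cDNA fragmentation and 2.49 by rRNA depletion, so that the order of the protocols turned. Of its possible start points, those where a whole read can lie in a block, 94.0% had a read in small intestine and 70.6% in colon by cDNA fragmentation. The ratio of 1.39 thus had little room to rise, and the turn is not read as a difference in level.

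The DM genes load and edit peptide. H2-DMa (chr17:34272616-34275480, plus strand, 4 exon blocks) had 233 and 36.8 RPKM by cDNA fragmentation and 52.2 and 10.7 by rRNA depletion, from 4092, 712, 83 and 29 reads. The levels differed between protocols more than 3-fold within a tissue, but the ratio between tissues was 6.34 (5.85 to 6.87) and 4.89 (3.17 to 7.75). H2-DMb1 (chr17:34290136-34297174, plus strand, 6 exon blocks) had 47.6 and 6.56 RPKM by cDNA fragmentation and 18.4 and 4.70 by rRNA depletion, from 1373, 209, 48 and 21 reads. The ratio was 7.25 (6.26 to 8.42) and 3.91 (2.29 to 6.87). Of the reads on H2-DMb1 in the rRNA-depleted pair, 12 in small intestine and 15 in colon had at most 1 color mismatch, and the ratio by these was 1.43 (0.610 to 3.27). The rRNA-depleted ratio of H2-DMb1 thus rested on reads with 2 or 3 mismatches, and without these reads 6 of 7 members were called in that pair. H2-DMb1 has a near copy in its neighbour H2-DMb2, and 46.0% of the positions where a read can lie in H2-DMb1 had another exonic place within 3 mismatches, so its reads cannot be given to it with certainty, and 378 of its 1080 positions had an exact copy, from which reads were not kept. Such positions made up 17.9% of H2-Eb1, 10.6% of H2-Ab1, 3.52% of Cd74, 1.07% of Ciita and 0.222% of H2-Aa, and 0 positions of H2-DMa.

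Ciita (chr16:10488372-10527657, plus strand, 19 exon blocks) had the lowest RPKM of the 7 members in each library. It had 1.90 RPKM in small intestine against 0.470 in colon by cDNA fragmentation, from 220 and 60 reads, and 13.4 and 2.79 RPKM by rRNA depletion, from 141 and 50 reads. The ratio was 4.04 (3.03 to 5.47) and 4.82 (3.47 to 6.79). By cDNA fragmentation Ciita was the 1 member not called, since the penalty of 1 RPKM is larger than its colon level and the penalised ratio was 1.29. With a penalty of 0.1 all 7 members were called in both protocols. This looser rule called 696 of the 16574 genes tested by cDNA fragmentation higher in small intestine and 1371 higher in colon. By rRNA depletion it called 1067 and 2466 of 15152.

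**Figure D2:**
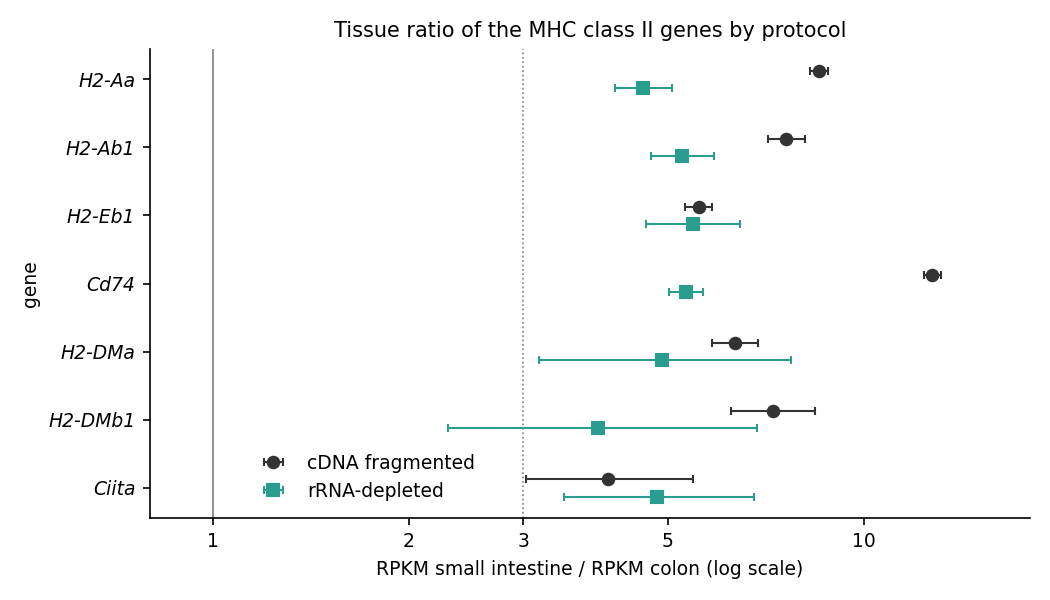
RPKM in small intestine divided by RPKM in colon, on a log axis, for the 7 members by cDNA fragmentation (circles) and rRNA depletion (squares), with 95% counting intervals, a solid line at 1 and a dotted line at 3. All 14 points lie right of 3, and only the intervals of H2-Aa, H2-Ab1 and Cd74 do not overlap between protocols.

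Counted in reads, the ratio between tissues was higher by cDNA fragmentation than by rRNA depletion for 6 of the 7 members, Ciita being the exception at 0.839 times. For H2-Aa, H2-Ab1 and Cd74 the counting intervals of the protocols did not overlap. For H2-Eb1, H2-DMa, H2-DMb1 and Ciita they did. By start points the direction turned for 5 of the 6 members that were higher by cDNA fragmentation, and the ratio was higher by rRNA depletion for each member but H2-DMb1. By cDNA fragmentation and rRNA depletion it was 1.38 and 3.01 for H2-Aa, 2.59 and 3.71 for H2-Ab1, 1.78 and 3.66 for H2-Eb1, and 4.55 and 2.35 for H2-DMb1. In the cDNA fragmented small intestine library 96.9% of the possible start points of H2-Aa and 80.8% of those of H2-Ab1 had a read. The rRNA-depleted small intestine library had 29.4% and 26.2%. For H2-Eb1, which turned as well, 60.3% had a read in small intestine and 35.4% in colon by cDNA fragmentation. Near full use a ratio by start points can rise little. The cause of the turns was not tested, and they are not read as differences in level. The protocols differ in RNA selection, depth and, for the cDNA fragmented pair, in the sex-linked genes given above, and these cannot be told apart.

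The order of the members within a library was compared per length. Cd74 exceeded H2-Aa 1.34-fold (1.32 to 1.35) in small intestine by cDNA fragmentation, and 2.34-fold (2.20 to 2.48) and 2.01-fold (1.82 to 2.22) in small intestine and colon by rRNA depletion. In the cDNA fragmented colon library the order was turned, with Cd74 at 0.894 times H2-Aa (0.858 to 0.932). The α chain H2-Aa was 4.64 and 4.13 times its β chain H2-Ab1 in small intestine and colon by cDNA fragmentation, and 1.22 and 1.40 times by rRNA depletion. This ratio thus moved more with protocol than with tissue. H2-Ab1 and H2-Eb1 were near each other by cDNA fragmentation, at a ratio of 1.05 (1.02 to 1.08) in small intestine and 0.772 (0.717 to 0.831) in colon, while H2-Ab1 was about 3 times H2-Eb1 by rRNA depletion, at 3.04 and 3.15. H2-DMa was 4.90 and 5.60 times H2-DMb1 by cDNA fragmentation and 2.84 and 2.27 times by rRNA depletion, though reads from 378 of the 1080 positions of H2-DMb1 have an exact copy elsewhere and were not kept. In all 4 libraries H2-DMa, H2-DMb1 and Ciita held the last 3 places. Counting reads per position where a whole read can lie, in place of per base, gave 0.960 for Cd74 over H2-Aa in the cDNA fragmented colon library and left that order as it was.

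The exon blocks of the members were compared next. Of 55 blocks, 49 had a read in the cDNA fragmented pair, of which 45 had the higher read density in small intestine and 4 in colon, against 43% of the blocks of all genes in small intestine. The 4 were blocks of Ciita, with 0 and 1 reads, 0 and 1, 2 and 6, and 4 and 5. In the rRNA-depleted pair 46 of 48 blocks had the higher density in small intestine, against 39.6%, and the other two were again blocks of Ciita, with 0 and 2 reads and with 0 and 1. Among blocks with at least 20 reads, which a block reaches mostly through its higher tissue, ratios ran from 4.27 to 17.4 by cDNA fragmentation and from 1.38 to 14.2 by rRNA depletion. The highest cDNA fragmented ratio was that of the first block of H2-Ab1, with 316 and 20 reads. Blocks of one gene share their libraries and are not replicates of the tissue.

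The seventh block of Cd74 is treated apart. The mouse invariant chain has a short form, p31, and a long form, p41, which holds 1 exon more, and this exon encodes a domain that binds cathepsin L. The seventh block, of 192 bases (chr18:60970948-60971139 in mm9), is the exon that only the long form holds. It had 1105 reads in small intestine and 225 in colon by cDNA fragmentation, and 17 and 21 reads by rRNA depletion. In each library this block had the lowest read density of the gene. Its reads made up 1.95% (1.84 to 2.07) of all Cd74 reads in small intestine and 4.59% (4.02 to 5.21) in colon by cDNA fragmentation. By rRNA depletion the share was 0.379% (0.221 to 0.607) in small intestine and 1.46% (0.907 to 2.23) in colon. The share was thus higher in colon in both protocols, with odds ratios of 2.42 (2.08 to 2.80) and 3.89 (1.95 to 7.88) against small intestine. Set against the density of both neighbouring blocks, the long form block stood at 7.86% in small intestine and 19.5% in colon by cDNA fragmentation, and at 0.551% and 2.58% by rRNA depletion. The rRNA-depleted values rested mostly on block 6, of 91 bases. It had 1587 reads on 45 start points in small intestine and 424 on 31 in colon. Block 8, of 63 bases, had 93 and 19 reads there. The rRNA-depleted values thus depend on the neighbour chosen. Neither they nor their distance from the cDNA fragmented values are read as use of the long form. The long form block itself was 5.42-fold (4.69 to 6.28) higher in small intestine by cDNA fragmentation and 1.38-fold (0.685 to 2.75) by rRNA depletion, where the difference was not detectable at this depth.

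**Figure D3:**
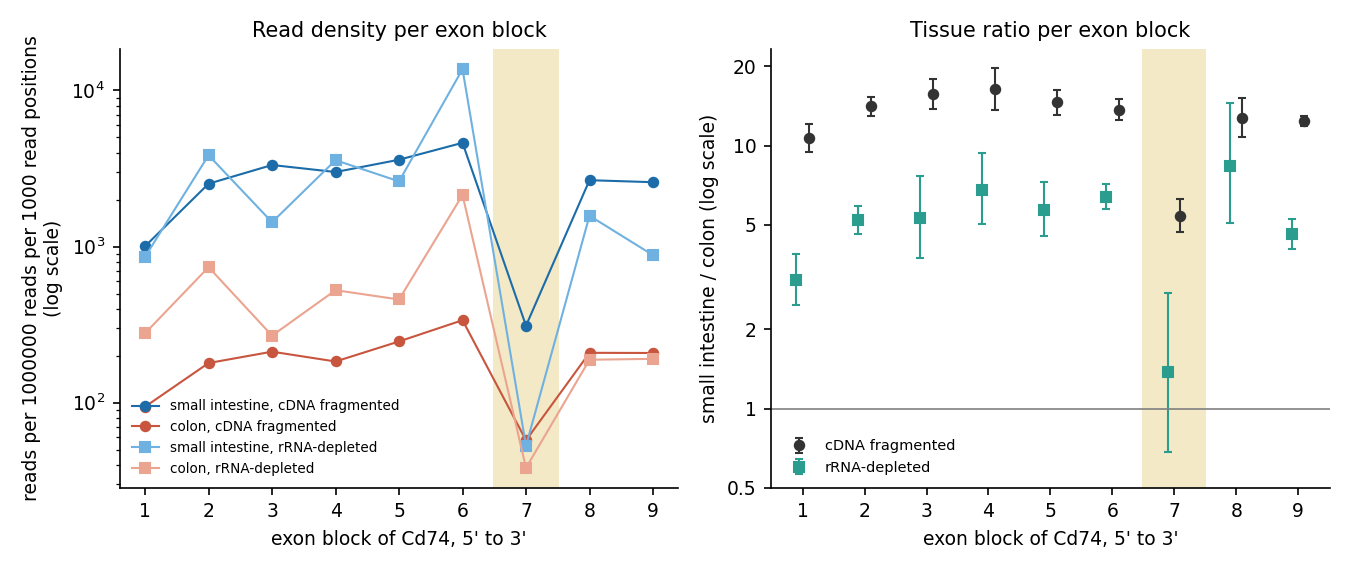
Left, reads per 1000000 uniquely placed reads and per 1000 read positions on a log axis for the 9 exon blocks of Cd74 in the 4 libraries. Right, the ratio of small intestine to colon per block with 95% counting intervals, where the shaded seventh block, held by the long form only, has the lowest ratio in both protocols, 5.42 and 1.38.

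The direction of this share was not the same by start points in the cDNA fragmented pair. When start points were counted in place of reads, the block held 13.1% of the start points of Cd74 in small intestine and 9.06% in colon, so that the order turned, while by rRNA depletion it held 3.35% and 5.57%. The share of possible start points in use was high in the cDNA fragmented small intestine library, where 94.0% of the possible start points of Cd74, the positions where a whole read can lie in a block counted on either strand, had a read, against 70.6% in colon. The cause of the turn was not tested. Junction reads could not help, because 0 to 2 reads per library lay on the junctions into, out of and across this block.

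Other members are given in the same way. In the cDNA fragmented small intestine library 96.9% of the possible start points of H2-Aa and 82.4% of those of H2-DMa were in use, against 73.3% and 36.4% in colon. By start points 1 of 7 members, H2-DMb1, was called higher in small intestine in the cDNA fragmented pair, against 2.42% of all genes tested, and 4 of 7, namely H2-Ab1, H2-Eb1, Ciita and H2-DMa, in the rRNA-depleted pair, against 3.54%. Over all genes 3.58% and 6.48% were called higher in colon by start points. Each member was still higher in small intestine, from 1.38-fold for H2-Aa to 4.55-fold for H2-DMb1 by cDNA fragmentation and from 2.35-fold for H2-DMb1 to 4.63-fold for Ciita by rRNA depletion. Reads per start point of the members ran from 1.15 for Ciita to 27.2 for Cd74 in the cDNA fragmented small intestine library, and from 1.13 to 3.14 in colon. By rRNA depletion they ran from 1.53 to 10.7 and from 1.31 to 5.01.

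Ciita can start from several promoters, each with its own first exon. The exon table held 1 first exon block for it, of 146 bases (chr16:10488372-10488517), which had 0 reads in small intestine and 1 read in colon by cDNA fragmentation, and 0 and 2 reads by rRNA depletion. No count passed the limit of 3 reads, so neither its use nor a difference in it was detectable at this depth. The other blocks carried few reads as well, and only 2 of 19 had at least 20 reads in either pair. Block 10, the longest but for the last, had 31, 8, 49 and 11 reads in the order small intestine and colon by cDNA fragmentation, then by rRNA depletion. The last block had 161, 34, 53 and 25 reads, of the 220, 60, 141 and 50 reads of Ciita in these libraries.

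Strand was kept in the rRNA-depleted libraries only. Of 8114 reads on the members in small intestine 3 were antisense, and of 2691 in colon 2 were antisense, so 99.96% and 99.93% were sense, against 98.4% over all genes in either library. The antisense reads lay on Ciita (2 in small intestine and 1 in colon), Cd74 (1 in small intestine) and H2-Aa (1 in colon). In the cDNA fragmented libraries 50.4% and 51.2% of the members' reads were sense, and a gene and an antisense partner cannot be told apart there.

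The other class II chains and editors were low in all libraries. None of the 5 passed the 3-fold rule by cDNA fragmentation, and none of the 3 that were present passed it by rRNA depletion. H2-Oa, a chain of the DO heterodimer that holds back DM, had 5.22 and 4.23 RPKM in small intestine and colon by cDNA fragmentation and 1.41 and 2.74 by rRNA depletion. Its partner H2-Ob had 6.03 and 4.76 RPKM, and 1.47 and 2.58. The ratio of H2-Ob was 1.27 (1.09 to 1.48) by cDNA fragmentation and 0.570 (0.221 to 1.31) by rRNA depletion. H2-Eb2, a relative of H2-Eb1, had 10, 14, 10 and 31 reads in the same order of libraries, and H2-DMb2 had 26, 20, 1 and 2, so that by rRNA depletion it did not pass the limit of 3 reads. Of the positions of H2-DMb2, 81.3% had another exonic place within 3 mismatches.

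The 5 members on chromosome 17 lie in the class II region, which runs in mm9 from H2-Oa to H2-Ea and held 15 genes of the exon table. H2-DMb2 lies between H2-DMa and H2-DMb1, while H2-Ab1, H2-Aa and H2-Eb1 stood side by side. Genes of class I presentation lie between these groups. Psmb9 and Psmb8, subunits of the immunoproteasome, had ratios of 2.29 (2.14 to 2.45) and 4.63 (4.34 to 4.93) by cDNA fragmentation and 5.67 (3.48 to 9.60) and 10.1 (5.29 to 21.2) by rRNA depletion. The peptide transporter genes Tap1 and Tap2 had ratios of 2.54 (2.24 to 2.89) and 1.04 (0.814 to 1.33), and of 3.40 (2.72 to 4.27) and 2.53 (1.78 to 3.62). The region thus did not shift as a block, with H2-Oa, H2-Ob and H2-Eb2 beside the members at ratios of at most 1.27.

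**Figure D4:**
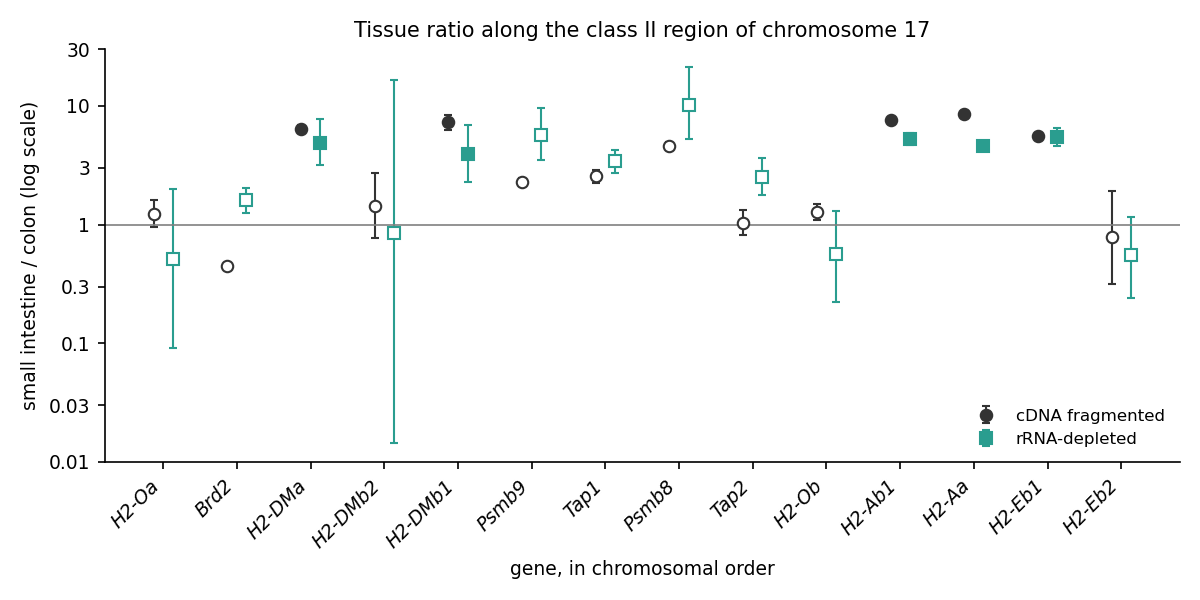
Ratio of small intestine to colon on a log axis for 14 genes of the class II region in chromosomal order, by cDNA fragmentation (circles) and rRNA depletion (squares), with members filled, other genes open and 95% counting intervals as bars. H2-Ea, with 2 reads in all, is left out, and the 5 members lie between 3.91 and 8.54 while H2-Oa, H2-Ob and H2-Eb2 lie between 0.513 and 1.27 and H2-DMb2 rests on 1 and 2 reads by rRNA depletion.

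The rest of the pathway was described by lists. Among 6 lysosomal genes for processing, no gene passed the 3-fold rule toward small intestine, and Ctsl, which encodes cathepsin L, passed it toward colon in both protocols. Ctsl had 28.5 and 109 RPKM in small intestine and colon by cDNA fragmentation and 3.49 and 15.9 by rRNA depletion, a colon/small intestine ratio of 3.84 and 4.56, and with size factors it was not called in either protocol. The median log2 ratio of this list was 0.17 and 1.21, and -0.24 and 0.87 with size factors. Of 13 genes for class II transcription and interferon gamma signalling, among them those for the RFX and NF-Y subunits and for the interferon gamma receptor, none passed the rule in either direction. Their median log2 ratio was 0.01 and 0.10, and -0.39 and -0.24 with size factors. The 7 of them that encode RFX, CREB and NF-Y factors, which hold CIITA at promoters, had small intestine/colon ratios of 0.642 to 1.29 by cDNA fragmentation and 0.413 to 1.29 by rRNA depletion, beside 4.04 and 4.82 for Ciita. Of 5 genes for class II turnover and costimulation none passed the rule. March1, whose product marks class II molecules for degradation, had 3.23 RPKM in small intestine against 0.669 in colon by cDNA fragmentation, a ratio of 4.83 (3.78 to 6.23), and like Ciita it was not called because of the penalty. By rRNA depletion it had 1.63 and 2.21 RPKM, a ratio of 0.739 (0.384 to 1.36).

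Of 9 genes for class I presentation, 2 were called higher in small intestine by cDNA fragmentation and 3 by rRNA depletion, and all 9 had a log2 ratio below 0 in both protocols, also with size factors. B2m, which encodes the light chain of class I, had 3448 and 1001 RPKM by cDNA fragmentation and 1362 and 601 by rRNA depletion and was called in the former. Psmb8 was called in both protocols, and Tap1 and Psmb9 by rRNA depletion. Nlrc5 had 0.922 and 0.285 RPKM by cDNA fragmentation and 3.11 and 0.993 by rRNA depletion. Its ratios were 3.24 (2.33 to 4.58) and 3.13 (1.86 to 5.39), and it was not called because of the penalty of 1 RPKM. The class I heavy chain gene H2-K1 had 218 and 182 RPKM, and 384 and 258. The median log2 ratio of the list was -1.19 and -1.33, against -2.84 and -2.28 for the class II members. By start points 0 of the 9 were called by cDNA fragmentation and 3 by rRNA depletion. The list's median was then -0.40 and -1.45, against -1.24 and -1.87 for the members.

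**Figure D5:**
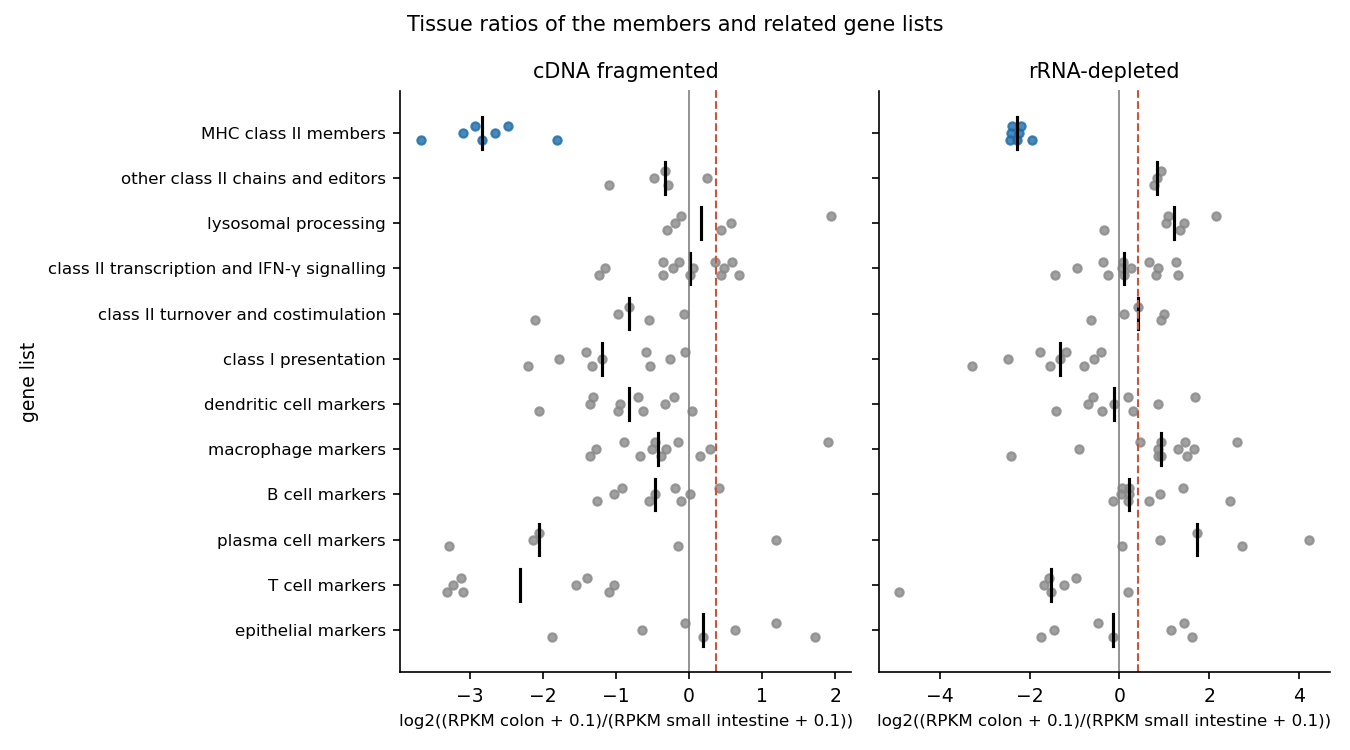
Log2 ratio, colon over small intestine, with 0.1 RPKM added, for each gene present in the members' list and 11 other lists, by cDNA fragmentation (left) and rRNA depletion (right). Black bars are list medians and the dashed red line is the median of all genes tested, 0.36 and 0.42, and all 7 class II members lie at or below -1.81 and -1.94.

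Total tissue holds leukocytes as well as epithelium, so markers of these cells are set beside the members. Ptprc, the pan-leukocyte gene for CD45, had 18.2 RPKM in small intestine against 4.36 in colon by cDNA fragmentation, a ratio of 4.17, and 10.6 and 6.04 by rRNA depletion, a ratio of 1.75. The 8 T cell markers summed to 96.9 and 21.3 RPKM by cDNA fragmentation, where Cd3e, Cd3g and Cd8a were called higher in small intestine at ratios of 10.7, 8.87 and 11.1 and Cd8b1 stood uncalled at 11.9, and to 23.7 and 9.64 by rRNA depletion, where none was called. Cd3g and Cd8b1 were at 0 reads in the rRNA-depleted colon library. The 5 plasma cell markers summed to 3525 and 476 RPKM, with 3 called higher in small intestine, and to 557 and 843 RPKM by rRNA depletion, with 0 called higher in small intestine and 1, Sdc1, in colon. The immunoglobulin joining chain gene Igj made up 3335 RPKM of the cDNA fragmented small intestine sum, at a ratio of 9.75 by cDNA fragmentation and 0.966 by rRNA depletion, while Xbp1 had 1.11 and 0.534 and Sdc1 0.437 and 0.303. Tnfrsf17 was at 0 reads in the rRNA-depleted small intestine library. By start points 1 plasma cell marker and 4 T cell markers were called higher in small intestine by cDNA fragmentation, and 0 and 1 by rRNA depletion.

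Markers of the cells that express class II constitutively are given next. The 10 dendritic cell markers summed to 35.2 and 22.4 RPKM by cDNA fragmentation and to 42.5 and 21.5 by rRNA depletion, and 0 of 10 were called in either protocol, with Clec9a at 0 reads in the rRNA-depleted small intestine library. Irf8 alone had 19.0 and 16.5 RPKM of these sums by cDNA fragmentation, and 35.5 and 13.2 by rRNA depletion. Without regard to the rule, 9 of the 10 were higher in small intestine by cDNA fragmentation and 5 of the 9 that passed the filter by rRNA depletion. As for Ciita, the penalty weighs on low levels: by cDNA fragmentation Cd209a, Xcr1 and Siglech had ratios of 4.31 (3.35 to 5.60), 3.10 (2.05 to 4.80) and 3.03 (1.68 to 5.76) without it. By rRNA depletion the 3 had 1.71, 1.14 and 0.513, from at most 10 reads a library. Log2 ratios ran from -2.06 to 0.04 over the 10 by cDNA fragmentation and, over the 9, from -1.42 to 1.68 by rRNA depletion. The 12 macrophage markers summed to 204 and 230.3 RPKM and to 142 and 176, with Cd14 called higher in colon in both protocols and Mertk higher in small intestine by rRNA depletion. Of these 12, 9 had the higher level in small intestine by cDNA fragmentation and 2 by rRNA depletion, and without Cd14 the sums were 188 and 172 RPKM by cDNA fragmentation and 139 and 155 by rRNA depletion. The 10 B cell markers summed to 64.7 and 37.3 RPKM and to 24.7 and 34.7, with 1, Cd79b, called higher in colon by rRNA depletion, and Pax5 was at 0 reads in both cDNA fragmented libraries. The 7 epithelial markers summed to 2397 and 2764 RPKM and to 3976 and 6200.3, of which Vil1 was called higher in small intestine and Krt19 higher in colon in both protocols. Summed ratios by cDNA fragmentation and by rRNA depletion were 9.28 and 5.12 for the members, 7.40 and 0.661 for plasma cell markers, 4.55 and 2.46 for T cell markers and 1.57 and 1.98 for dendritic cell markers. Smooth muscle markers, at summed ratios of 0.240 and 0.0988, and adipocyte markers, at 0.206 and 0.167, were on the side of colon. With size factors Cd14 by cDNA fragmentation, Sdc1, Cd79b and Krt19 were no longer called, and 1 dendritic cell marker was called higher in small intestine in each protocol. Of the T cell markers 4 were then called by cDNA fragmentation and 1 by rRNA depletion, and of the epithelial markers 2 were called higher in small intestine by rRNA depletion. How much of the members' difference goes with any of these cells was not tested.

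The genes whose profile over the 4 libraries was nearest to that of the members were sought among genes with at least 50 reads in each library, by the Euclidean distance of centred log2(RPKM + 1) values to the members' mean profile. The 5 nearest were Abhd3 at a distance of 0.294, Tgfbi at 0.409, Sepp1 at 0.434, Plin3 at 0.458 and Sult2b1 at 0.462. H2-Eb1 and H2-Aa themselves lay at 0.553 and 0.585, and Ciita, whose level differed most between protocols, at 2.24. Abhd3 had 62.4 and 9.55 RPKM by cDNA fragmentation and 47.6 and 13.1 by rRNA depletion, and Sepp1, which encodes a plasma selenoprotein, had 2772 and 433 RPKM and 2514 and 709. Likeness was measured over 4 libraries only and describes their levels.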

How the data were processed

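The authors deposited matched reads of 4 libraries, as positions, strands and color mismatches of single reads (up to 3 mismatches in 35 colors, unique placements), with tables of RefSeq exons and junctions of mm9. These values are of other kinds than expression units and hold no normalization by the authors. A file of notes was not used. Per the labels, the second pair was depleted of ribosomal RNA, whereas the study's methods describe polyadenylated RNA for its RNA fragmented protocol. The pair's totals, 36419942 reads of small intestine and 37466674 of colon, are also smaller than those the study gives for that protocol. Whether this pair is among the libraries the study describes cannot be told here, and the label was followed.

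Each read was given to the exon block that holds its middle base, and RPKM was calculated on all uniquely placed reads. Blocks were named by GENCODE M1 and joined into genes by name and chromosome. A block without a name took the commonest name among the blocks that the junction table joins to it, and 171 of 20978 genes were left without one. Intervals are exact (Poisson for counts, binomial for shares and for ratios, conditional on the sum), at 95%. A count of 0 was set against 3 reads. Other exonic places of reads were sought with bwa 0.7.19, and other steps used Python 3.11.15, pandas 2.3.3 and scipy 1.17.1. The 3-fold call was tested on simulated counts per gene, and the block fit on simulated log2 values. The counting of reads per block was not tested in this way. The long form share of Cd74 was meant to come from junction reads. At most 0.0249% of junction reads matched without a mismatch, against 34.0% or more of exon reads. Exon block reads were used instead, an alternative added after the data were seen. They give the share of reads on the long form block, not the share of long form transcripts.

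The members, gene lists and rules were chosen with earlier results of these data known. Named were the 7 members, genes of the pathway lists that passed the 3-fold rule in at least 1 protocol, and the 5 nearest profiles. Other genes were named for their role after their values were seen. Alternatives were size factors, at most 1 mismatch, start points, blocks shared with no other gene, added junction reads, another penalty or pseudocount, a minimum of 20 reads, and sense reads only. A fit of tissue with protocol as a block (limma 3.58.1) was added after the data were seen. A result that needs an item withheld for evaluation is not reported here.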

Additional observations from a re-analysis of the deposited data

How the results depend on the processing

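The labels carry no replicate numbers and tie no library to a mouse, and with 1 library per tissue and protocol none could be left out within a pair. With protocol as a block, a fit added after the data were seen that pairs the tissues within each protocol, the members' median log2 ratio was -2.47, in place of -2.84 and -2.28 within the pairs. For each member the log2 ratio (colon over small intestine) was below 0 under all alternatives run, in 49 of 49 values by cDNA fragmentation (-4.08 to -0.47) and in 56 of 56 by rRNA depletion (-2.79 to -0.51). The members' median was -3.24 with size factors and -1.24 by start points by cDNA fragmentation, and -2.62 and -1.87 by rRNA depletion. Under the other alternatives run within the pairs it lay between -2.87 and -2.68 by cDNA fragmentation and between -2.41 and -2.19 by rRNA depletion. By start points the members called higher in small intestine were 1 and 4 in place of 6 and 7, while over all genes they were 401 and 537 in place of 450 and 559, and those higher in colon 593 and 982. With size factors those higher in colon over all genes were 346 and 643 in place of 531 and 999. With a penalty of 0.1 they were 1371 and 2466, and those higher in small intestine 696 and 1067 in place of 450 and 559. The share of Cd74 reads that lay on the long form block was 1.60% with at most 1 mismatch in the cDNA fragmented small intestine library. By start points the block held 13.1% and 9.06% in small intestine and colon by cDNA fragmentation, and 3.35% and 5.57% by rRNA depletion. The sense share of the members was 51.1% and 52.1% with at most 1 mismatch by cDNA fragmentation and 100% in the rRNA-depleted small intestine library, and by start points 99.76% and 99.71% by rRNA depletion. The cause of these changes was not tested. Depth limits the rRNA-depleted values of H2-DMa and H2-DMb1, with 29 and 21 colon reads, and all exon-level values of Ciita.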
